A study of Canis lupus familiaris with 6 samples.

Results

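Chemokines, interleukins and their receptors are the secreted signals, and the proteins that receive them, by which leukocytes are called into tissue and by which tissue cells and leukocytes instruct each other. They were measured here in the left ventricle of dogs with and without cardiomyopathy. The members were taken by gene symbol, as every probe set with exactly 1 symbol of a CC, CXC or CX3C chemokine or its receptor, or of an interleukin or its receptor, and CXCL10 was not included. This gave 111 genes of 15115 with a single symbol, and 166 of the 42924 probe sets of the array. The rule uses no measured value. The list held 20 CC ligands, 6 CXC and CX3C ligands and 11 chemokine receptors, and the rest were interleukins, interleukin receptors, antagonists and decoys.

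Each of 6 dogs gave 1 Affymetrix canine array, from ventricle frozen in liquid nitrogen. The controls were a male Labrador retriever aged 12 years (control 1), a female St. Bernard aged 10 years (control 2) and a male Greater Swiss Mountain dog aged 4 years (control 3). The affected group was 3 Great Danes whose tissue is labelled DCM, a female aged 9 years (affected 1) and males aged 7 years (affected 2 and 3). No control is a Great Dane, so breed and disease cannot be told apart, and the labels name no drug or stage of disease. The deposited values are centred so that the 6 arrays of every probe set have a median of 0, on a scale taken as log2, so they show which dog was higher but not how strongly a gene was expressed. For the same reason the labelled tissue could not be checked against the level of its marker genes.

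Chemokines guide cells by binding receptors coupled to inhibitory G proteins. Homeostatic ones such as CCL21 and CXCL12 are made steadily by lymphatic endothelium and by stromal cells, while inflammatory ones such as CCL2 and CXCL8 are induced by injury. Interleukin 1 acts on heart and stromal cells through the receptor IL1R1, which is checked by the antagonist IL1RN and the decoy IL1R2, and interleukin 6 acts through IL6R with the shared chain IL6ST.

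Most members moved across the arrays as unexpressed sequences did. The array carries 17 probe sets for synthetic tags that no dog transcribes, and their mean was 0.06, 0.01 and 0.13 on controls 1 to 3 and -0.03, -0.03 and -0.01 on affected 1 to 3. These unexpressed tags thus lay lower on every affected array than on any control. Of the 111 members, 65 ran with the tags over the 6 arrays at a Pearson correlation above 0.9, or 58.6%, against 37.8% of all 15115 genes. These 65 differed between the groups by -0.44 to -0.04, with a median of -0.13, against a median of -0.11 over the 5717 genes of the array that ran with the tags. The correlation is a description over 6 arrays that share their scaling, and the limit of 0.9 was set with results of these data known. It takes no account of size, and the values of the 65 ranged over 0.06 to 1.10 across the arrays. As the tags were lower on every affected array, it cannot tell a gene at background from one lower in the affected dogs.

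**Figure D1:**
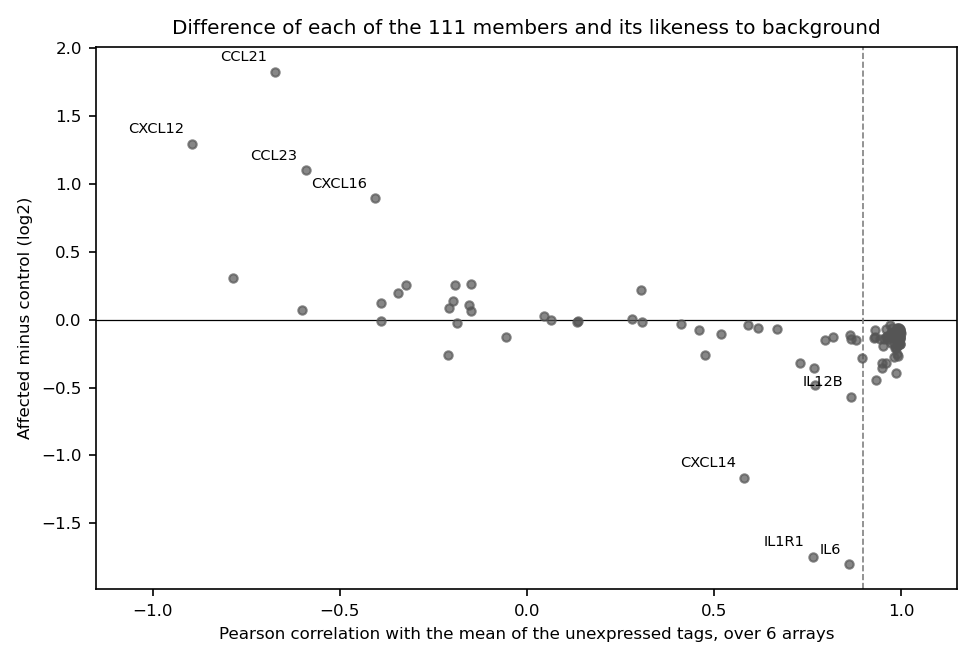
Difference between affected and control arrays (log2, vertical axis) of each of the 111 members against its Pearson correlation with the mean of the unexpressed tags over the 6 arrays (horizontal axis), 1 point per gene, with a dashed line at 0.9. The 65 members right of the line lie together just below 0, and CCL21, CXCL12, IL1R1 and IL6 lie far from 0 to its left.

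The comparison asked which of these signals differ in the left ventricle of affected Great Danes. CCL21 and CXCL12 were the only members whose affected values all lay above the controls, and IL1R1 had the largest difference among members at an unadjusted p under 0.05 in the other direction. No member passed the adjusted threshold of 0.05 over all 15115 genes, and neither did any other gene (limma, background 0% higher and 0% lower). The unadjusted limma p was under 0.05 for 2 higher members, against 4.88% of all genes, and for 6 lower ones, against 5.64% of all genes. In percent these were 1.8 and 5.41 of the members, so neither share exceeded that of the whole array. The count of 6 was 47 without control 2, or 42.3% of members, where the share of all genes also rose, to 24%. It was between 0 and 3 without any other array, with 1.85% to 3.97% of all genes. The direction of 20 of the 111 members turned when 1 array was left out, among them CCL2, CCL5, CCL14, CXCL8, IL1R2, IL6R, IL10RB, IL11RA, IL13RA1, IL15, IL18, IL33 and IL34. The groups did not overlap in 2 members that were higher, where this held for 5.8% of all genes, and in 70 that were lower, where it held for 41.7%. Of those 70, 62 ran with the unexpressed tags. Among the 46 members that did not run with the tags, 2 were higher without overlap, against 9.33% of all such genes. The 8 lower without overlap were CCL4, CCL19, IL1R1, IL5, IL6, IL12RB1, IL17REL and IL36RN, or 17.4% against 10.2%. Of these, CCL4, CCL19 and IL36RN differed by -0.13, -0.14 and -0.12, near the median of -0.13 of the members that ran with the tags. The IL5 probe set that did not run with the tags had overlapping groups, and IL6 differed by -0.065 without control 3. The median difference over all 111 members was -0.11, against -0.075 over all genes, with 18 members above 0 and 93 below. After quantile normalization 39 members were above 0 and 72 below, and with arrays centred on their median 36 and 75. The members' median was then -0.042 and -0.038, against -0.012 and -0.0022 over all genes.

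CCL21, which lymphatic endothelium presents to draw CCR7-bearing dendritic and T cells, had the highest difference of all members. Its values were -0.44, -1.05 and -0.73 on controls 1 to 3 and 1.49, 0.44 and 1.34 on affected 1 to 3. The groups were apart, with affected 2 the lowest of the affected dogs. The difference was 1.83 (SE 0.33, n = 3 against 3), or 3.55-fold, with a limma adjusted p of 0.322. CCL21 has a single probe set, whose difference lay between 1.63 and 2.15 in the 16 alternatives tried, with limma adjusted p from 0.162 to 0.528. The neighbouring gene CCL19, the other ligand of CCR7, differed by -0.06 and -0.23 in its probe sets, and CCR7 itself by -0.18 with a correlation with the tags above 0.9.

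CXCL12, which stromal cells and endothelium make to hold progenitors and lymphocytes in place, was measured by a pair of probe sets. The first was at -0.55, -0.29 and -1.27 on controls 1 to 3 and 0.97, 0.29 and 0.31 on affected 1 to 3. The second was at -0.38, -0.58 and -1.06 on the controls and 1.21, 0.38 and 0.49 on the affected dogs. In each probe set all affected dogs lay above all controls, with affected 1 the highest and control 3 the lowest. The probe sets ran opposite to the unexpressed tags, at correlations of -0.93 and -0.84, and their mean did so at -0.89. Whether the array pattern of the tags has a part in the CXCL12 values was not tested. On the mean of both probe sets the difference was 1.30 (SE 0.30), or 2.46-fold, with a limma adjusted p of 0.322. This difference was between 1.06 and 1.43 in the other settings. ACKR3, an atypical receptor that binds and removes CXCL12, differed by 0.29 (SE 0.27), with overlapping groups.

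Both chemokines and most fibroblast markers were higher in the affected dogs. The median of 6 fibroblast markers was -0.35, -0.08 and -1.61 on controls 1 to 3 and 1.11, 0.06 and 0.60 on affected 1 to 3, and 5 of the 6 were higher in the affected dogs without overlap. These 5 ran opposite to the unexpressed tags, at correlations from -0.96 for COL3A1 to -0.85 for FBLN1. The other, PDGFRA, differed by -0.69 with overlapping groups. Within each group the mean of the CXCL12 probe sets ordered the dogs as the marker median did, but controls 1 and 2 were close, at -0.46 and -0.44. The second CXCL12 probe set reversed these controls, at -0.38 on control 1 and -0.58 on control 2. CCL21 did not follow the marker order among the controls either. It was lowest on control 2, the control with the highest marker median. Summed over the 6 markers the controls ranged from -8.32 to -0.74 and the affected dogs from 0.28 to 5.68. The endothelial markers ranged in sum from -1.76 to 2.86 in controls and from -2.33 to 2.16 in affected dogs, and 4 of these 6 were below 0 in their difference, with a median of -0.15. They ran from -0.82 for PECAM1, with overlapping groups, to 0.89 for VWF, the only one of them higher without overlap. None of these 6 was listed as a marker of lymphatic endothelium, so they cannot show whether those cells differed. In whole tissue, more cells of a type and more RNA per cell cannot be told apart, and the part of either cell type in the chemokine values was not tested.

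Of all members 16, or 14.4%, ranged over at least 1 across the 6 arrays, against 18.1% of all genes. Among the other CC ligands only the values of CCL23, CCL2, CCL14 and CCL20 ranged over at least 1. CCL23, a chemokine of monocytes and neutrophils, was at 0.76, -0.18 and -1.44 on controls 1 to 3 and 2.65, 0.18 and -0.40 on affected 1 to 3. It was high on affected 1 alone and the groups overlapped. Its difference of 1.10 (SE 0.99, limma adjusted p = 0.451) was 0.18 without affected 1 and 1.70 without affected 3. CCL2, the main attractant of monocytes to injured heart, stood low on 1 dog of each group, at -2.28 on control 2 and -1.55 on affected 3, with the rest between -0.08 and 0.44. The difference of 0.22 (SE 0.88) was -0.60 without control 2 and 0.78 without affected 3, and was also below 0 without affected 1 or affected 2. CCR2, the receptor of CCL2, ran with the unexpressed tags and differed by -0.13. CCL14, an abundant plasma chemokine, differed by -0.0077 and was highest on affected 1, at 0.98, and lowest on affected 3, at -1.02. CCL20, which calls CCR6-bearing cells, differed by -0.48 (SE 0.25), with -0.76 on affected 1 and 0.47 on control 3 at the ends, and by -0.25 without affected 1. Its probe set of larger range differed by -0.84.

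**Figure D2:**
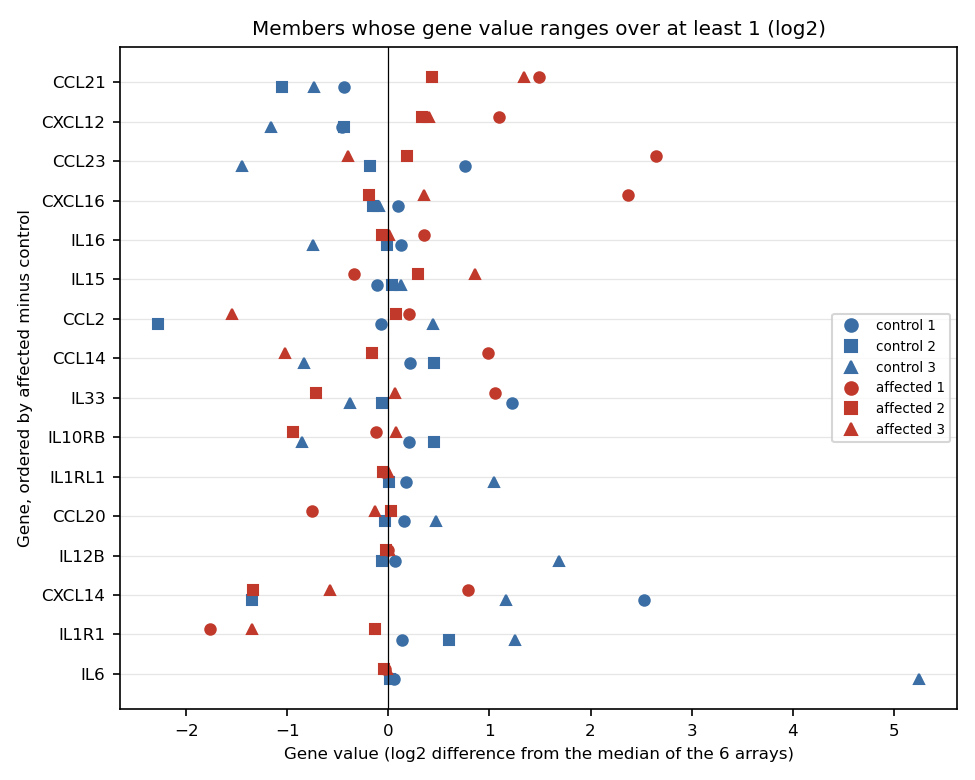
Gene value on each of the 6 arrays (log2 difference from the median of the arrays, horizontal axis) of the 16 members whose value ranges over at least 1, ordered by affected minus control, with controls in blue and affected dogs in red. CCL21 and CXCL12 at the top separate the groups upward, IL1R1 near the bottom separates them downward, and IL6 stands at 5.25 on control 3 alone.

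Of the 20 CC ligands 9 ran with the tags. CCL4, an inflammatory chemokine, did not, and was at 0.04, 0.05 and 0.07 on controls 1 to 3 and -0.07, -0.12 and -0.04 on affected 1 to 3. It was lower on every affected dog, with a difference of -0.13 (SE 0.04, limma adjusted p = 0.322), which was -0.14 after quantile normalization and -0.06 with arrays centred on their median. CCL16 and CCL17 were lower without overlap by the same size, at -0.13 each, and ran with the tags. CCL5, the T cell chemokine, differed by 0.11 and was highest on affected 1, at 0.32.

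Of the other chemokine ligands, CXCL16 and CXCL14 varied most. CXCL16, a chemokine tethered to macrophages that also takes up oxidised lipid and is the ligand of CXCR6, was at 0.09, -0.15 and -0.09 on controls 1 to 3 and 2.37, -0.19 and 0.35 on affected 1 to 3. Only affected 1 stood clear of the others. The difference of 0.90 (SE 0.68, limma adjusted p = 0.386) was 0.13 without that dog. CXCL14, a chemokine of epithelium and stroma, was at 2.53, -1.35 and 1.17 on controls 1 to 3 and 0.78, -1.34 and -0.58 on affected 1 to 3. It differed more within each group than between them. Its difference of -1.16 (SE 1.13) was -0.29 without control 1 and -2.23 without control 2. CXCL8, the neutrophil attractant, differed by 0.0040, and its highest value was 0.66 on affected 3, which came from 1 of its 3 probe sets at 2.0 on that dog. CX3CL1 and CXCL13 differed by -0.13 and -0.15.

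CCL23 and CXCL16 stood highest on the dog with the highest macrophage markers. The median of 11 macrophage genes was 1.48, -0.42 and -0.71 on controls 1 to 3 and 2.30, -0.15 and -0.0033 on affected 1 to 3, and all 11 were above 0 in their difference (10 after quantile normalization) with none passing the test. Their sum ranged from -7.50 to 12.2 in controls and from -1.51 to 24.1 in affected dogs. Control 1, the next highest in these markers, had the next highest CCL23 value, but its CXCL16 value was near 0. The part of macrophages in these values was not tested.

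**Figure D3:**
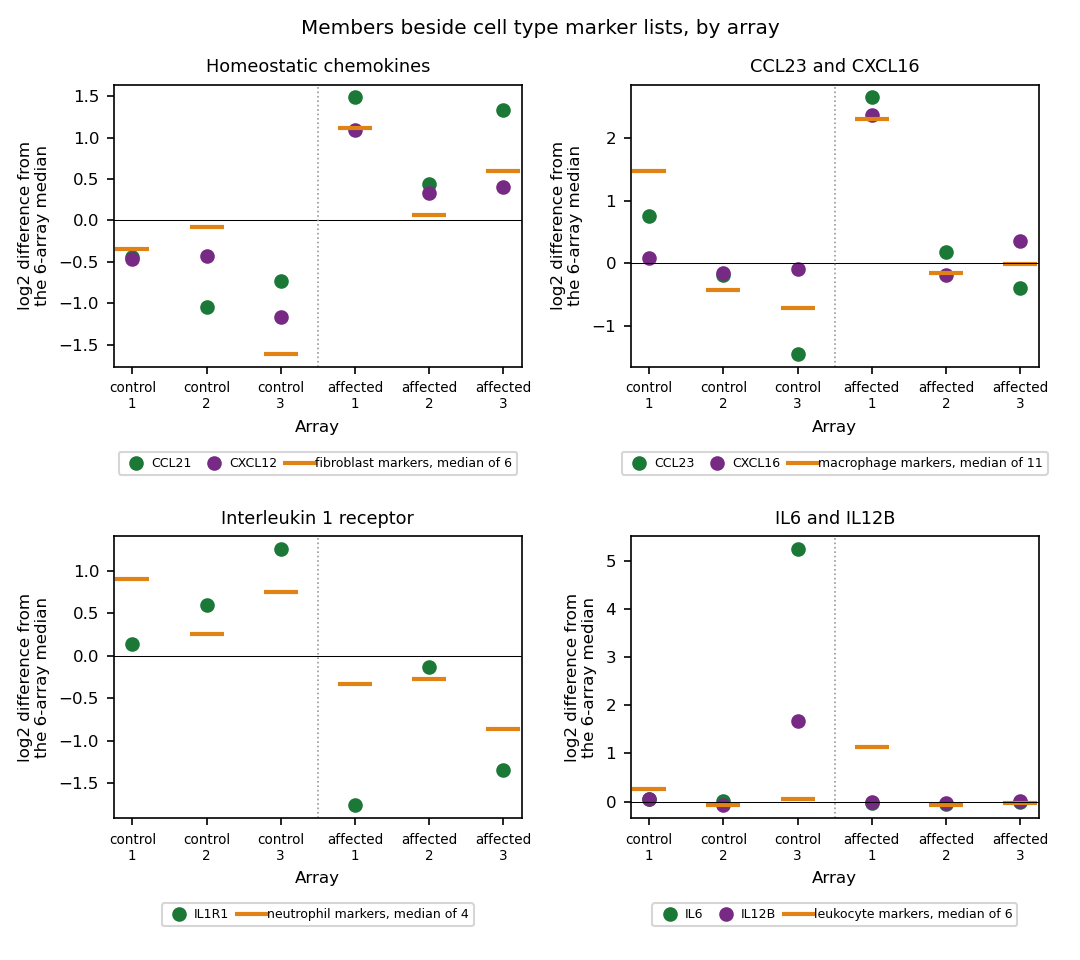
Values on each array (log2 difference from the 6-array median, vertical axis) of CCL21 and CXCL12 beside the median of 6 fibroblast markers, of CCL23 and CXCL16 beside 11 macrophage markers, of IL1R1 beside 4 neutrophil markers, and of IL6 and IL12B beside 6 general leukocyte markers, with controls left of the dotted line. CCL21 and CXCL12 are above 0 on all 3 affected dogs, CCL23 and CXCL16 are high on affected 1, and IL6 is high on control 3 alone.

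The 11 chemokine receptors all but 1 moved with the tags. All 11 differences were below 0, between -0.21 for CCR3 and -0.06 for CCR4, but 4 were above 0 after quantile normalization and 1 with arrays centred on their median. In this family 10 of the 11 ran with the unexpressed tags. The exception was CCR1, a receptor of monocytes and neutrophils, with 0.24 on control 1 and at most 0.06 in size on the other dogs. Those 10 included CCR2, CCR4, CCR6, CCR7, CCR9, CXCR5 and CXCR6, the receptors of CCL2, CCL17, CCL20, CCL21, CCL25, CXCL13 and CXCL16.

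IL1R1, the receptor through which interleukin 1 alpha and beta signal, was lower in the affected dogs. It was at 0.14, 0.60 and 1.26 on controls 1 to 3 and at -1.76, -0.14 and -1.35 on affected 1 to 3. The groups were apart, but affected 2 lay close to control 1. The difference was -1.75 (SE 0.51), or 3.36-fold lower, with a limma adjusted p of 0.322. It ran from -2.22 without affected 2 to -1.41 without affected 1, and its unadjusted limma p rose above 0.05 without control 2, control 3 or affected 3, to at most 0.063. IL1R1 rests on a single probe set.

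IL1R1 lies in a run of 6 member genes that neighbour each other on chromosome 10 of the UU_Cfam_GSD_1.0 assembly, with IL18RAP, IL18R1, IL1RL1, IL1RL2 and IL1R2. All 6 were below 0 in their difference, and 5 after quantile normalization, where IL18RAP was at 0.0073. Of all 111 members 93 were below 0, and of all 15115 genes 9830. IL18RAP, IL18R1, IL1RL1 and IL1RL2 ran with the unexpressed tags, while IL1R1 and IL1R2 did not. The other members of the run differed by -0.44 for IL1RL1, the receptor of the alarmin IL33, by -0.15 for the decoy IL1R2, by -0.14 for IL1RL2, by -0.10 for IL18R1 and by -0.07 for IL18RAP. Of these, IL1RL1 ranged over 1.10, which was 1.05 on control 3 with the other dogs between -0.06 and 0.17. Without that dog its difference was -0.13.

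The ligands of IL1R1 moved with the tags. IL1B differed by -0.39 (SE 0.18) and ran with them in all 3 of its probe sets, and IL1A differed by -0.09. The antagonist IL1RN differed by -0.07 with overlapping groups, and the accessory chain IL1RAP by -0.15. IL33 was at 1.22, -0.07 and -0.38 on controls 1 to 3 and 1.05, -0.72 and 0.07 on affected 1 to 3, with a difference of -0.13 (SE 0.62) that turned to 0.36 without control 1 and 0.30 without affected 2. IL18, which macrophages release with interleukin 1, was highest on affected 1 at 0.81 and differed by 0.06.

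Neutrophil markers were lower on all 3 affected dogs, as IL1R1 was. The median of the 4 measured was 0.90, 0.25 and 0.75 on controls 1 to 3 and -0.33, -0.28 and -0.86 on affected 1 to 3, with S100A9 at -2.71 and S100A8 at -2.14 in their differences. All 4 were lower without overlap, but CSF3R and MPO only by -0.09 each, and these 2 ran with the tags. The sum over the 4 ranged from 1.13 to 3.93 in controls and from -3.68 to -1.22 in affected dogs. Within the groups the order of dogs was not that of IL1R1. Among the controls IL1R1 was lowest on control 1, where the neutrophil median was highest. The part of neutrophils in the IL1R1 values was not tested.

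Interleukin 6, an inducible signal of injury and of the acute phase, stood high on 1 dog relative to the others. IL6 was at 5.25 on control 3 and at 0.06 and 0.01 on controls 1 and 2, and it lay between -0.04 and -0.01 on the affected dogs. The difference between the groups was -1.80 (SE 1.51, limma adjusted p = 0.423), and without control 3 it was -0.065. IL6 has a single probe set. On the same dog IL12B, a subunit of interleukin 12, was at 1.68, where the other dogs lay between -0.06 and 0.06. Control 3 held the highest value of 81 of the 111 members, of 6 of the 16 that ranged over at least 1, and the highest tag mean. It also held 1683 probe sets below -1, where the other arrays held 161 to 510. General leukocyte markers were at 0.07 on that dog against 1.13 on affected 1, which was the highest. IL6R differed by 0.08 and was at 0.32 on affected 1, its highest value, which came from 1 of its 2 probe sets. Of the 6 ligands and 7 receptors of the interleukin 6 and 12 families, 2 and 3 ran with the tags. IL11RA, the receptor of a signal that acts on fibroblasts, differed by -0.024 (SE 0.25).

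Among the signals of lymphocytes, IL5, which supports eosinophils, was at 0.04, 0.29 and 0.33 on controls 1 to 3 and -0.01, -0.15 and -0.15 on affected 1 to 3. On this mean of 2 probe sets the groups did not overlap and the difference was -0.32 (SE 0.10, limma adjusted p = 0.322). The first IL5 probe set differed by -0.28, without overlap, and ran with the tags. The second differed by -0.36 and did not run with them, and its groups overlapped. IL15, which keeps natural killer and memory T cells alive, was at -0.11, 0.04 and 0.12 on controls 1 to 3 and -0.34, 0.30 and 0.86 on affected 1 to 3. The difference of 0.26 (SE 0.31) was -0.034 without affected 3. Of its receptor chains IL15RA differed by -0.13, IL2RB by -0.12 and the common gamma chain IL2RG by -0.12, and all of them ran with the tags. So did IL2, IL4, IL7 and IL13, with differences of -0.18, -0.13, -0.13 and -0.09, and the receptors IL2RA, IL4R, IL7R and IL13RA2. In this receptor family 10 of 11 genes ran with the tags, and IL13RA1, a chain that IL4 and IL13 share, was the exception at 0.12 (SE 0.22). Of the T cell markers 6 of 9 ran with the tags, with a median on every array between -0.04 and 0.10, and 3 of the 5 measured B and plasma cell markers ran with the tags.

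The 7 ligands of the interleukin 10 family all ran with the tags, with differences from -0.32 for IL10, which restrains macrophages, to -0.07 for IL20, and 3 of them were above 0 after quantile normalization and 2 with arrays centred on their median. IL10RA did so as well, at -0.13, while IL10RB, the chain that IL10 shares with its relatives, was at 0.20, 0.45 and -0.86 on controls 1 to 3 and -0.12, -0.95 and 0.07 on affected 1 to 3. Its groups overlapped, and its difference of -0.26 (SE 0.44) was -0.66 without control 3 and 0.04 without affected 2. In the interleukin 17 family, IL17A ran with the tags at -0.17. Its receptor IL17RA, present on most stromal cells, was at -0.13, -0.07 and 0.05 on controls 1 to 3 and 0.01, 0.12 and 0.49 on affected 1 to 3. IL17RA differed by 0.26 (SE 0.14), with the top on affected 3. IL17RB, a receptor of the relative IL25, was lower without overlap at -0.19 (SE 0.07, limma adjusted p = 0.322) and ran with the tags. Its probe sets were at -0.45, -0.05 and -0.08, so that their median gave -0.08. IL16 and IL34, which stand outside these families, differed by 0.31 (SE 0.26) and 0.03, and IL16 was lowest on control 3, at -0.75, without which it differed by 0.04.

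Several members were measured by probe sets that did not give the same difference. Of the 40 members with more than 1 probe set, 13 had probe sets on both sides of 0, and in 13 some but not all probe sets ran with the tags. The widest spread was that of IL15, at 0.80 (SE 0.52) and -0.28 (SE 0.14). For IL17RA the probe sets were at 0.77 (SE 0.24), 0.17 and -0.17, and the last ran with the tags. The first was at -0.43, -0.15 and -0.26 on controls 1 to 3 and 0.15, 0.33 and 0.99 on affected 1 to 3, so that its groups did not overlap. IL13RA1 had 0.56, -0.02 and -0.17, and CXCL8 had 0.53, -0.13 and -0.39. Of the 166 member probe sets, 67 carry the suffix by which Affymetrix marks probes shared between transcripts, and 24 members rest on such probe sets alone, IL6 among them. Fitted singly in limma, no member probe set passed the adjusted threshold, where 0.00233% of all probe sets did as higher and 0% as lower. The unadjusted p was under 0.05 for 4 higher member probe sets, against 4.53% of all, and for 9 lower ones, against 6.32% of all. Without overlap between the groups, 4 were higher, or 2.41% against 5.37% of all, and 110 were lower, or 66.3% against 46.9%. The 4 higher without overlap were the single probe set of CCL21, both of CXCL12 and the first of IL17RA. Of the 166 probe sets 105 ran with the tags, or 63.3%, against 41.8% of all.

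**Figure D4:**
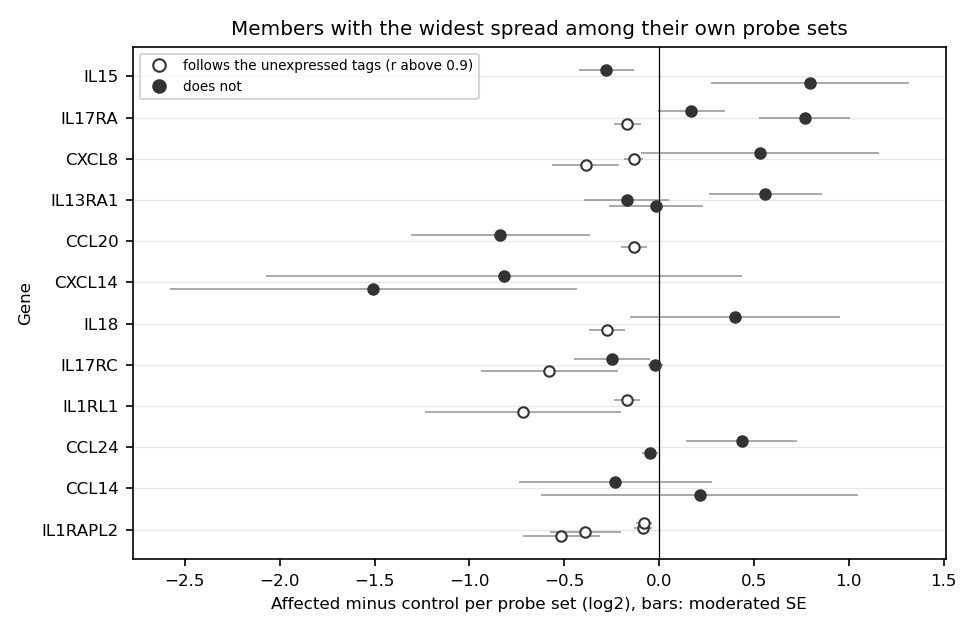
Affected minus control (log2, horizontal axis) of each probe set of the 12 members with the widest spread among their own probe sets, with bars for the moderated SE, and open circles for probe sets that run with the unexpressed tags at a correlation above 0.9. The probe sets of IL15, IL17RA, CXCL8, IL13RA1, IL18, CCL24 and CCL14 lie on both sides of 0.

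Of 60 genes listed for signalling downstream of these receptors, 53 were measured and none passed the adjusted threshold in limma. The unadjusted limma p was under 0.05 for 0 of the 53 as higher, against 4.88% of all genes. It was under 0.05 for 6 of the 53 as lower, a larger share than the 5.64% of all genes. The list was not tested as a set, and its median was -0.065 against -0.075 over all genes. Of the 53, 14 were above 0 and 39 below, which became 19 and 34 after quantile normalization and 27 and 26 with arrays centred on their median. The widest of the 6 were CISH and SOCS2, inhibitors that cytokine receptors induce, at -2.15 (SE 0.75) and -1.13 (SE 0.41), and IL6ST, the shared signalling chain of the interleukin 6 family, at -1.27 (SE 0.47), all with a limma adjusted p of 0.322. CISH was at 1.47, 0.02 and 2.67 on controls 1 to 3 and -1.30, -0.02 and -0.98 on affected 1 to 3, and it ran with the tags. IL6ST was high on controls 1 and 3, at 1.57 and 1.38, and lay between -0.56 and 0.04 on control 2 and the affected dogs. GNAI2, an inhibitory G protein subunit to which chemokine receptors couple, was lower without overlap, at -0.64 (SE 0.16).

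Other measures of the arrays ran alongside the groups or single dogs. The spiked polyadenylated control transcripts were at 0.63 and 2.56 on affected 1 and affected 3, against -0.33 to 0.01 on the other arrays. The 3' minus 5' difference of beta-actin, which is higher where RNA is less intact, was 0.42 and 1.05 on these arrays, against -0.46 to 0.08 on the rest. The same measure of GAPDH did not single them out, at -0.01 and -0.06 on affected 1 and affected 3, against 0.30 on control 2 and 0.26 on affected 2. IL1R1 was lowest and CCL21 highest on the same pair of dogs, and the part of these measures in those values was not tested.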

How the data were processed

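The deposited table holds log2 values of 43035 probe sets on 6 arrays; the scale was inferred from its range and from GCRMA and MAS5, which the submitters' processing notes name without role or version, and the authors had centred each probe set on its median (largest absolute median 5e-07). Labelling was a standard 1-cycle protocol, per the labels. Genome build and scaling are not given in the sources used here. The 111 control probe sets were left out, and no filter was applied. Of the 42924 others, 29254 had 1 symbol, 439 several, and 13231 were not listed. A gene's value was the mean of its probe sets. Of 112 member gene IDs, 110 matched RefSeq (UU_Cfam_GSD_1.0), all with the same symbol; IL17RE had 2 IDs.

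The test was limma's moderated linear model (version 3.58.1, R 4.3.3; lmFit and eBayes, two-sided, 4 residual and 1.28 prior degrees of freedom, Benjamini-Hochberg over all 15115 genes, threshold 0.05). SE is the moderated standard error. The labels call the arrays biological replicates; their number, 3 per group, limits the precision. On simulated arrays of 15115 genes for this comparison, 64% of genes changed by 1 on the log2 scale were recovered, 92% at 2, 88% at 3 and 96% at 4. These genes, unlike a tissue's, vary independently. The changed ones were drawn at random from all genes, each with its own spread, and 18.1% of all genes ranged over at least 1. The rates therefore need not hold for genes that vary more.

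Per-array values were given for members at an unadjusted p under 0.05 without overlap (8) and for 48 ligands and receptors of listed pairs (3 in both), many by their difference only; CCL14, CCL23, CXCL8, CXCL14 and IL12B, the range limit of 1, and members outside these lists were chosen after values were seen. Members and lists were chosen with earlier results of these data known. Alternatives were filtering, scaling, probe set choice, sex, age, replicate number, variance prior and leaving out each array.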

Additional observations from a re-analysis of the deposited data

How the results depend on the processing

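No member was called in any of the 16 alternatives, and over all genes 1 was called with the 40% of probe sets of smallest range left out and 0 in the other 15. The count of members higher at an unadjusted limma p under 0.05 stayed at 2 or 3. The count lower, 6 as reported against 5.64% of all genes, was 2 with that filter (2.98% of all genes), 12 after quantile normalization (6.95%), 1 with arrays centred on their median (2.23%), 42 with age as a covariate (19.4%) and 1 without the probe sets that run with the tags (2.3%), an alternative chosen after seeing the data. With 1 array left out it ran from 0, without affected 3, to 47, without control 2 (24% of all genes); the cause was not tested. The members' median difference was -0.042 after quantile normalization, -0.0378 after centring and -0.00775 without the probe sets that run with the tags. The median over all genes in the same settings was -0.0116, -0.00223 and 0.0486. With 1 array left out the members' median ran from -0.139 to -0.0638, and that of all genes from -0.0935 to -0.0545. The 8 members at an unadjusted p under 0.05 without overlap kept their direction in all 122 fitted alternatives. They were chosen for groups that do not overlap, so leaving out 1 array could not turn them. The sex, replicate number and variance prior settings return the same difference as the main fit. The kept direction is therefore no support for these members. Same-numbered arrays of the groups correlated in their deviations at 0.25, 0.16 and 0.06. The third is under 0.1, so the numbers were not taken as pairs, although each array correlated best with its own number, a hint from the data. With the replicate block 3 members were lower (4.44% of all genes) and 3 higher at an unadjusted p under 0.05. The level of the members that run with the tags is unknown here, which limits what can be read from these arrays. Their correlation with the tags takes no account of size.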
